A study of Homo sapiens with 6 samples.

Results

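IL17C and 9 further genes of the epithelial IL-17 response (IL17D, IL17RA, IL17RB, IL17RC, IL17RD, IL17RE, TRAF3IP2, NFKBIZ and DEFB4A) were followed in CAL-27 cells, an established human cell line of squamous tongue cancer. The cells carried either an shRNA against XBP-1s (shXBP-1s, 3 samples) or the control shRNA (shCtrl, 3 samples), with no other treatment in the labels, and the groups were set side by side to find the transcripts that differ when XBP-1s is knocked down. XBP-1s is the transcription factor made from the spliced XBP1 mRNA during stress of the endoplasmic reticulum. Total RNA of each sample was hybridised to a 1-colour Agilent array. Whether the 3 samples of a group came from separate cultures, and whether the shRNA cells were a pool or a clone, is not given in the sources used here, so the p-values measure only the spread between these samples.

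The 10 genes were matched to probes through the RefSeq accession of each probe, which gave 13 of the 34127 probes on the array, 10 of 19740 genes. The set was chosen by values of this same comparison. Among called probes with a gene symbol, well above background on all 6 arrays, the fall of IL17C in shXBP-1s ranked 5 in size. The values of the 10 genes are therefore given as a description, without a test. IL17RA had 3 probes, TRAF3IP2 had 2 probes and the other 8 genes had 1 probe each. All 13 probes were well above background on all 6 arrays, so no gene of the set was lost to the filter on dim probes. Levels are log2 signals relative to the 75th percentile of the array, so that a level of 0 equals that percentile, and signals are the background-subtracted intensities before this scaling.

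IL-17C is a cytokine made by epithelial cells themselves, which acts back on the epithelium through a receptor of IL-17RE and the shared subunit IL-17RA. The receptors of the family recruit the adaptor Act1, the product of TRAF3IP2, which passes the signal through TRAF6 to NF-kB. NFKBIZ encodes IkB-zeta, a nuclear protein induced by this route that helps to switch on secondary targets such as the beta-defensin DEFB4A, and epithelia are known to use the response against bacteria and fungi.

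RefSeq (GRCh38.p14) gave 14 windows of the 250 bases before an annotated start for 7 of the 10 genes (IL17D, IL17RB, IL17RC, IL17RD, IL17RE, NFKBIZ and TRAF3IP2), and the windows of IL17C, IL17RA and DEFB4A were not analysed here. Both strands were searched for ACGTG, the core letters of the elements that XBP-1s is known to bind, and for the NF-kB consensus. ACGTG stood in 2 of the 14 windows, against 18.5% of all 35116 windows. The NF-kB consensus stood in 3 of the 14 windows, against 9.96% of all windows. The windows of IL17RB and NFKBIZ are shown because each of them holds a match, whereas of the 4 windows of IL17D, which are not printed, 1 held ACGTG and another the NF-kB consensus. The printed windows are all on the plus strand and read toward the start, with the matches in capitals. A match is a description of the letters and not a site of binding.
IL17RB, chr3:53846318-53846567: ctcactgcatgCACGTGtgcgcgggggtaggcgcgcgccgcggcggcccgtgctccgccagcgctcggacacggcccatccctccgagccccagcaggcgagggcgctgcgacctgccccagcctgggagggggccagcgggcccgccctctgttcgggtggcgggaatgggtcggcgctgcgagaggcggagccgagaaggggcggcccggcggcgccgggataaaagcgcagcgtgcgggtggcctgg
NFKBIZ, upstream start, chr3:101827740-101827989: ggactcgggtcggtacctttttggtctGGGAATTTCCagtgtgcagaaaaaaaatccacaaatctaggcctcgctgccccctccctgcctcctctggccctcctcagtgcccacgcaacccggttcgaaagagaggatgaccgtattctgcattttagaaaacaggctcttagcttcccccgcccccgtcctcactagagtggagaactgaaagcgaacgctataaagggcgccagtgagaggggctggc
NFKBIZ, downstream start, chr3:101849264-101849513: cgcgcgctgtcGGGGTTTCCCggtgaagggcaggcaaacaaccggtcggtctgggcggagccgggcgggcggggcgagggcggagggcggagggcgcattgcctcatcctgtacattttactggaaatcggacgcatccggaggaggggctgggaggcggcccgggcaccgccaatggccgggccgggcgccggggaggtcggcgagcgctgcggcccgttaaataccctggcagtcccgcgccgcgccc
In IL17RB the match is CACGTG, which reads as ACGTG on both strands and begins 239 bases before the start. In NFKBIZ the match begins 223 bases before the upstream start and 239 bases before the downstream start.

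XBP1, the targeted gene, was lower in every shXBP-1s sample. Its probe gave signals of 2536, 2743 and 2766 in shCtrl and of 695.4, 617.2 and 551.0 in shXBP-1s, for a log2 fold change of -2.39 (SE 0.04, n = 3 against 3, adjusted p = 2.81e-07 with limma). The exact permutation test of 3 arrays against 3, 2-sided, gave p = 0.1, the smallest that this design allows. The sources used here give no probe sequence, so spliced and unspliced XBP1 mRNA cannot be told apart. By the scan identifier and scan date in the scanner output the arrays came from 2 scans, taken here as 2 slides. Slide 1 held shCtrl replicates 2 and 3, and slide 2 held shCtrl replicate 1 beside all 3 shXBP-1s samples. The 75th percentile of the signal was between 687.4 and 761.3 in shCtrl and between 792.0 and 983.4 in shXBP-1s, no spot was saturated, and precision is limited by the small number of arrays. A probe was called when limma gave a Benjamini-Hochberg adjusted p below 0.05 and a change of at least 2-fold, which held for 4.90% of the 27624 tested probes, 2.29% higher and 2.61% lower in shXBP-1s.

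Of the 13 probes, 1 was called, that of IL17C, and none of the set was called higher. The groups did not overlap for 10 of the 13 probes, 7 lower and 3 higher in shXBP-1s, against 52.4% of all tested probes, and nothing is read from these counts because the set was chosen on the comparison. With each gene taken by its brightest probe, the median log2 fold change of the 10 genes was -0.12, against -0.04 over the 16821 tested genes.

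**Figure D1:**
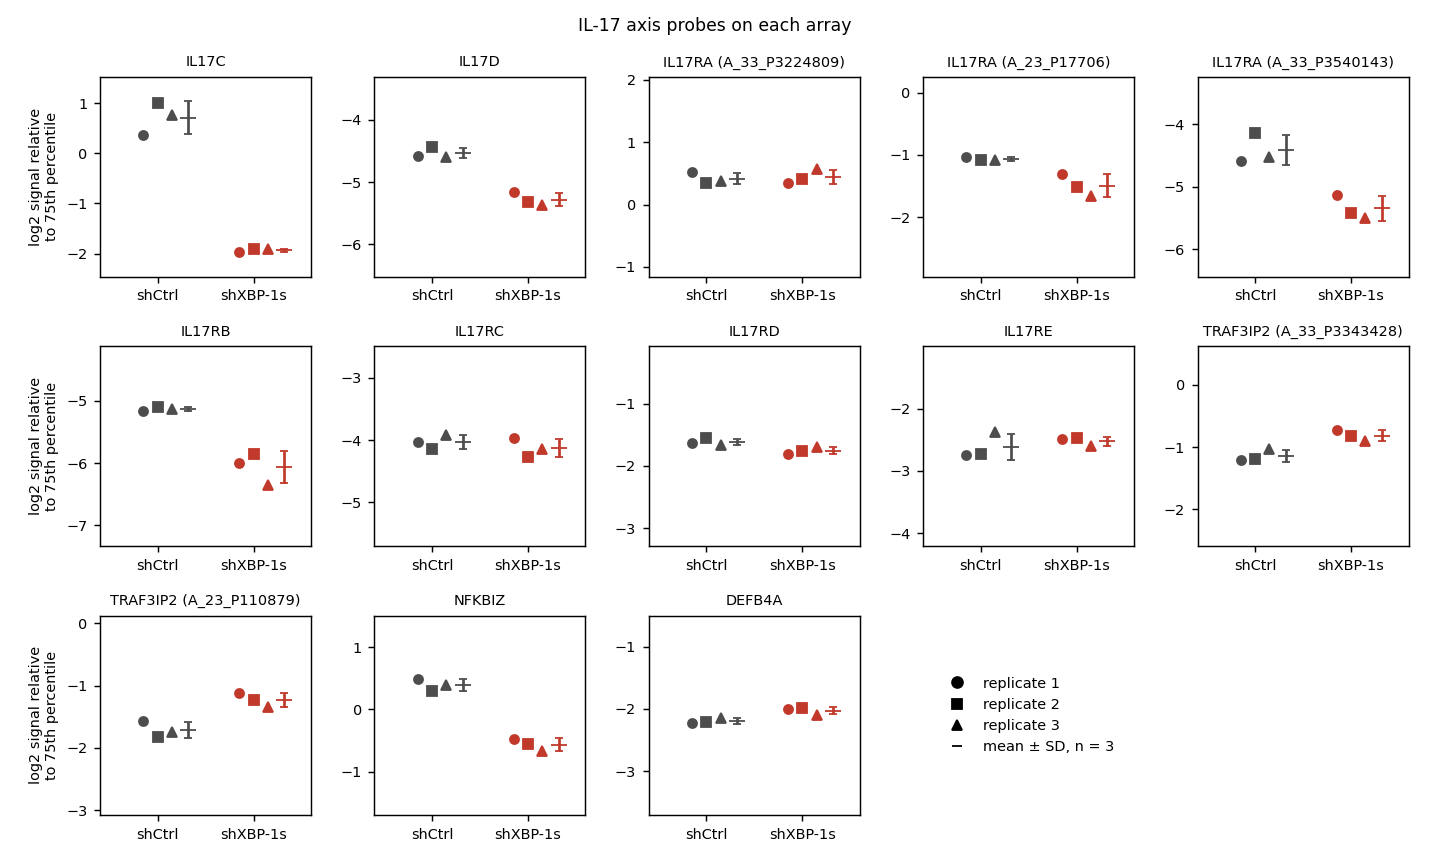
Log2 signal relative to the 75th percentile of the array (vertical axis) for each of the 13 probes in shCtrl (grey) and shXBP-1s (red), with a symbol per replicate and the mean with its SD (n = 3) beside them; the vertical range differs between panels. IL17C has the widest gap between the groups, 2.65 on the log2 scale, whereas the brightest IL17RA probe, IL17RC and IL17RE overlap.

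IL17C, the epithelial ligand, had the widest difference of the set. Its probe (accession NM_013278) gave signals of 884.4, 1531 and 1279 in shCtrl replicates 1 to 3 and of 249.4, 237.0 and 209.5 in shXBP-1s. The highest shXBP-1s signal was thus far under the lowest shCtrl signal. The scaled level was 0.71 ± 0.32 (SD, n = 3) in the controls, against -1.94 ± 0.04 (SD, n = 3) after knockdown. The log2 fold change was -2.65 (SE 0.14), which left 16.0% of the control level. In bulk RNA, fewer cells with the transcript and less of it per cell cannot be told apart. The spread lay in the controls. The lowest of them, shCtrl replicate 1, was the only control on the slide of the shXBP-1s samples and was 0.52 below the mean of the other two on the log2 scale. Within that slide the log2 fold change was -2.30, and it ranged from -2.82 to -2.50 when each array was left out in turn.

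IL17D, a less studied ligand of the family, had a dim probe (accession NM_138284) with the groups in the same order. Its signals were 28.9, 35.0 and 31.4 in shCtrl and 27.4, 22.5 and 19.1 in shXBP-1s. The groups did not overlap. The nearest pair of signals was 28.9 and 27.4, and the nearest pair of scaled levels was -4.59 and -5.16. The log2 fold change of the scaled levels was -0.75 (SE 0.11) and the size depended on the background correction. It was -1.01 with normexp alone, where the median of all tested probes was -0.41, and -0.22 with normexp and quantile normalization.

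IL17RA, the subunit that the receptors of the family share, was read by 3 probes that did not give the same difference. The brightest (A_33_P3224809) had levels of 0.52, 0.35 and 0.37 in shCtrl and of 0.34, 0.41 and 0.56 in shXBP-1s. These overlap, and the log2 fold change was 0.02 (SE 0.07), with a negative sign within slide 2 (-0.08). The middle probe (A_23_P17706) had levels of -1.03, -1.09 and -1.08 in shCtrl and of -1.30, -1.51 and -1.66 in shXBP-1s, for a log2 fold change of -0.42 (SE 0.09). The dimmest (A_33_P3540143) had signals of 28.5, 43.2 and 33.1 in shCtrl and of 28.2, 21.0 and 17.5 in shXBP-1s. Its log2 fold change was -0.93 (SE 0.16), and -0.29 with normexp and quantile normalization. It was -1.01 with normexp alone, where the median of all tested probes was -0.41. All 3 probes carry the accession NM_014339. The brightest overlapped between the groups and the other 2 were lower, so whether IL17RA differed depends on the probe.

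IL17RE, the subunit that binds IL-17C, did not separate the groups. Its probe (accession NM_153483) gave levels of -2.75, -2.74 and -2.37 in shCtrl and of -2.49, -2.47 and -2.60 in shXBP-1s. The log2 fold change was 0.10 (SE 0.11). Its sign turned with normexp alone (-0.31), where the median of all tested probes was -0.41, and it was 0.06 with normexp and quantile normalization. The ligand IL17C and its own receptor subunit therefore stood at a log2 fold change of -2.65 and 0.10 in the same RNA.

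IL17RB, the receptor subunit for IL-25, had a dim probe (accession NM_018725). Its signals were 19.1, 22.1 and 21.6 in shCtrl and 15.4, 15.5 and 9.67 in shXBP-1s. The 3 shXBP-1s signals were the 3 lowest, and the log2 fold change of the scaled levels was -0.93 (SE 0.16). It was -1.02 with normexp alone, where the median of all tested probes was -0.41, and -0.19 with normexp and quantile normalization. The window before its start is the one with CACGTG above.

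IL17RC (accession NM_153461), the partner of IL-17RA for IL-17A and IL-17F, overlapped between the groups. Its levels were -4.03, -4.14 and -3.92 in shCtrl and -3.97, -4.27 and -4.15 in shXBP-1s, for a log2 fold change of -0.10 (SE 0.11; -0.68 with normexp alone). IL17RD (accession NM_017563), also known as SEF and as a brake on fibroblast growth factor signalling, was slightly lower, with levels of -1.64, -1.55 and -1.66 in shCtrl and of -1.81, -1.76 and -1.70 in shXBP-1s. The 2 groups did not overlap, but the log2 fold change was only -0.14 (SE 0.06). It was -0.30 with normexp alone. In that setting, given for both genes, the median of all tested probes was -0.41. Of the 5 receptor genes, IL17RB was the one whose difference came closest to 2-fold by its brightest probe.

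**Figure D2:**
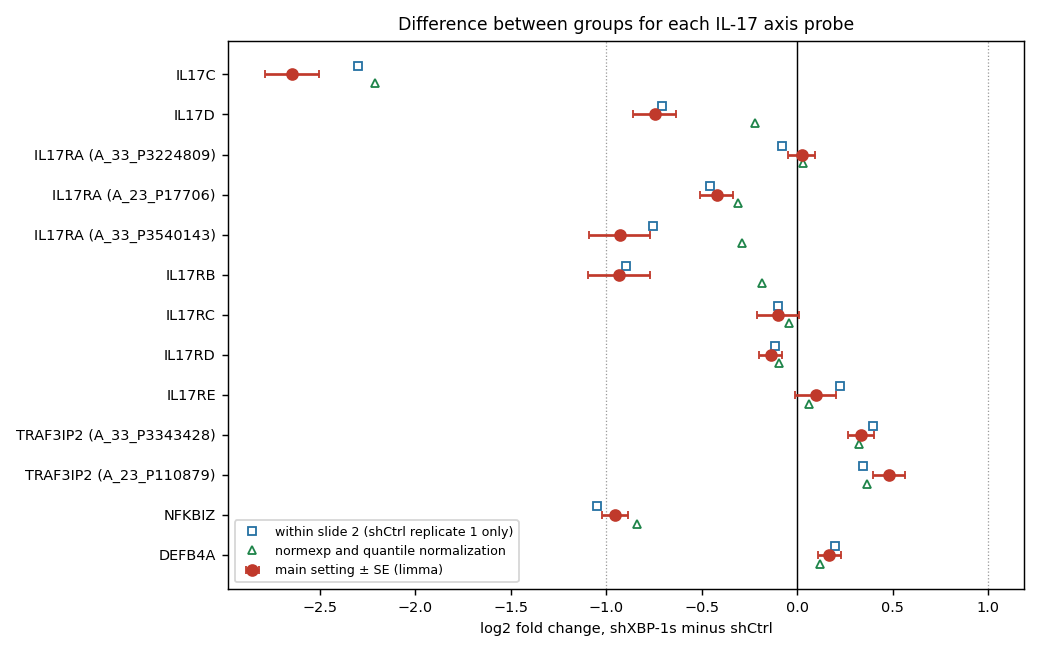
Log2 fold change of shXBP-1s over shCtrl for each probe (horizontal axis; red, limma estimate with its SE, n = 3 against 3), with the value within slide 2 (blue squares) and after normexp with quantile normalization (green triangles); dotted lines mark 2-fold. IL17C stays below -2.2 in all 3 settings, whereas the dim probes of IL17D, IL17RB and IL17RA move toward 0 after normexp with quantile normalization.

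TRAF3IP2, the gene of the adaptor Act1, was higher in shXBP-1s by both of its probes, which share the accession NM_147686. The brighter probe (A_33_P3343428) gave signals of 296.5, 332.7 and 367.8 in shCtrl and of 593.7, 504.8 and 425.5 in shXBP-1s. The scaled levels did not overlap and differed by 0.33 (SE 0.07) on the log2 scale. The other probe (A_23_P110879), printed in 10 spots, gave 231.0, 214.8 and 227.2 in shCtrl and 454.1, 381.3 and 312.2 in shXBP-1s, for a log2 fold change of 0.48 (SE 0.09). With normexp background correction, where the median of all tested probes was -0.41, the differences were 0.20 and 0.16, with the same sign.

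NFKBIZ, the gene of the coactivator IkB-zeta, was lower in shXBP-1s. Its probe (accession NM_031419) gave signals of 961.0, 938.8 and 988.6 in shCtrl and of 711.4, 610.3 and 496.7 in shXBP-1s. The controls lay within a narrow range and all 3 shXBP-1s samples were under it. The scaled level was 0.39 ± 0.09 (SD, n = 3) in the controls, against -0.56 ± 0.10 (SD, n = 3) after knockdown, and the log2 fold change of -0.96 (SE 0.07) left it just under the 2-fold limit, which it passed within slide 2 (-1.05).

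DEFB4A, the beta-defensin target, differed little and in the other direction from NFKBIZ. Its signals were 147.2, 163.7 and 171.2 in shCtrl and 246.7, 224.9 and 185.8 in shXBP-1s. The log2 fold change of the scaled levels was 0.17 (SE 0.06). It was -0.16 with normexp alone, where the median of all tested probes was -0.41, and 0.12 with normexp and quantile normalization. DEFB4A has a near-identical copy, DEFB4B, with no probe of its own here, so the probe (accession NM_004942) may read both.

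The other genes of the pathway were taken from lists of ligands, inducers, signalling proteins, brakes, mRNA stability factors and target genes, and tested with limma over all tested probes. Of 77 genes, 74 had a probe and 69 were tested, each by its brightest probe. Among the 69, 8 were called higher and 6 lower in shXBP-1s (5 called with normexp background correction, 2 higher and 3 lower). Over all 16821 tested genes, taken in the same way, 5.18% were called, and that share stands beside the counts of the lists that follow. The lists were chosen with earlier results of these data known, so nothing is read from their counts against that share. An adjusted p below 0.05 without the fold limit was reached by 21 higher and 23 lower, against 41.7% of all tested probes, and the median log2 fold change was 0.02.

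**Figure D3:**
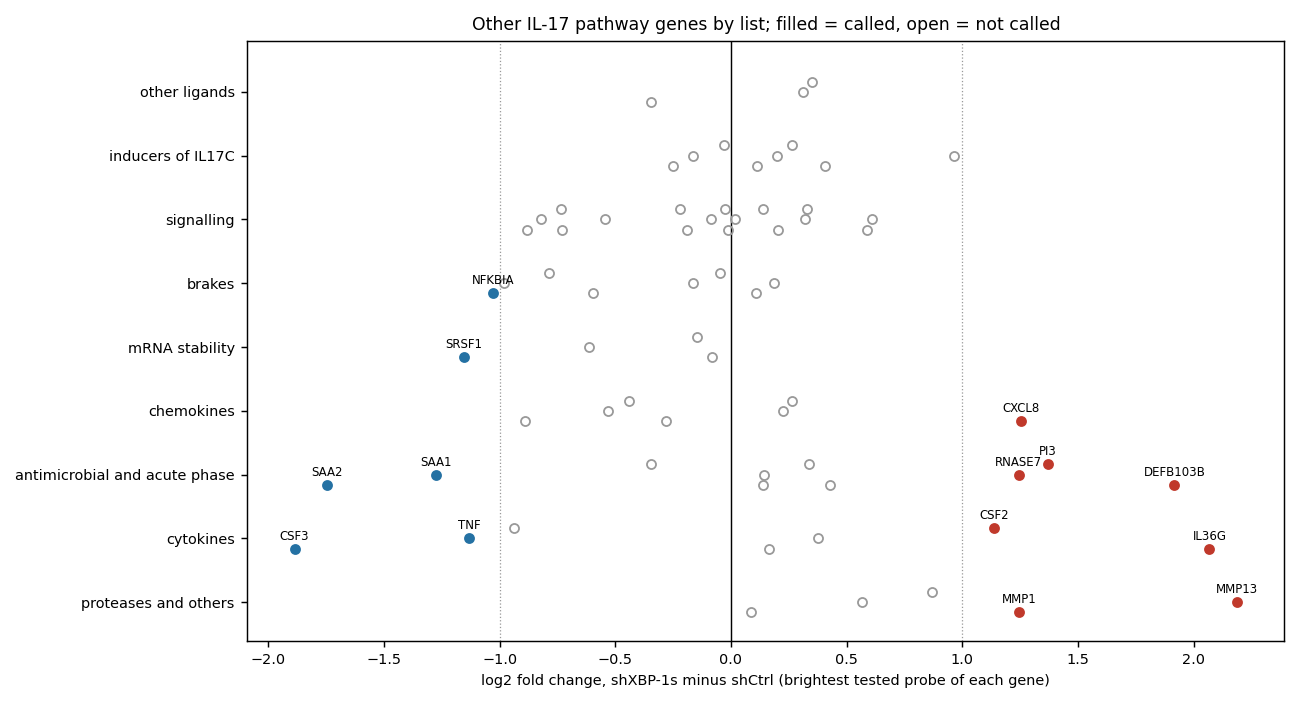
Log2 fold change of shXBP-1s over shCtrl (horizontal axis) for the brightest tested probe of 69 other IL-17 pathway genes, in rows by list (vertical offsets within a row only separate points); filled points were called higher (red) or lower (blue) and open points were not called, and dotted lines mark 2-fold. Of the 14 called genes, 12 belong to the 4 lists of target genes, 8 higher and 4 lower.

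Among the other ligands, none of the 3 tested was called, and IL25 was not well above background on any array. The IL17A probe gave 46.9, 133.4 and 137.3 in shCtrl and 107.1, 96.3 and 71.4 in shXBP-1s. The log2 fold change was -0.35 (SE 0.34, adjusted p = 0.458 with limma). Its direction rested on 1 control: without shCtrl replicate 1 it was -0.81 (adjusted p = 0.000528 with limma), and within slide 2, where that sample is the only control, it was 0.58 (adjusted p = 0.0119 with limma). IL17B (0.35, adjusted p = 0.44 with limma) and IL17F (0.31, adjusted p = 0.539 with limma) were near background. Both turned negative with normexp alone, where the median of all tested probes was -0.41. They were at -0.004 and 0.03 with normexp and quantile normalization. As for IL17C, shCtrl replicate 1 was the lowest control for IL17A.

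Of the 8 receptors, adaptors and kinases of routes known to induce IL17C none was called, although 3 were higher and 2 lower by the adjusted p alone. TLR2, the receptor for bacterial lipoproteins, gave 1141, 1267 and 1251 in shCtrl and 3180, 2906 and 2554 in shXBP-1s, for a log2 fold change of 0.96 (SE 0.04, adjusted p = 2.53e-06 with limma). It thus rose, just under the 2-fold limit, which it passed with normexp background correction (1.01), with quantile normalization (1.02) and with the deposited log2 values (1.03). The genes of the adaptor MYD88 (0.26) and the interleukin-1 receptor IL1R1 (0.41) rose less, whereas TLR3 (-0.25) and TNFRSF1A (-0.16) fell slightly.

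Of the 17 signalling genes none was called by its brightest probe, and 4 rose and 6 fell by the adjusted p alone. TRAF6, the ubiquitin ligase to which Act1 passes the signal, had a log2 fold change of 0.61 (SE 0.09, adjusted p = 0.00132 with limma). CEBPB, a transcription factor of IL-17 target genes, fell by 0.73 on the log2 scale (SE 0.05, adjusted p = 1.34e-05 with limma). The kinase genes IKBKE (-0.88), IKBKB (-0.74) and TBK1 (-0.55) and TRAF5 (-0.82) fell too, and the NF-kB subunits NFKB1 (0.33) and RELA (0.32) rose.

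Of the 8 brakes on the pathway, 1 was called, NFKBIA, the gene of the NF-kB inhibitor IkB-alpha. Its signals were 18665, 23744 and 21977 in shCtrl and 13208, 12629 and 12108 in shXBP-1s, and the log2 fold change was -1.03 (SE 0.07, adjusted p = 1.84e-05 with limma). The call stood at the 2-fold limit and was lost under 7 alternatives, among them without shCtrl replicate 2 (-0.98), without shXBP-1s replicate 1 (-0.99) and with the slide as a block (-0.93). CYLD (-0.98; called without shCtrl replicate 1, -1.03), ZC3H12A (-0.79) and USP25 (-0.60) also fell by the adjusted p alone. Of the 4 mRNA stability factors, SRSF1, a splicing factor that Act1 signalling is known to displace from chemokine mRNA, was called lower (-1.16, SE 0.06, adjusted p = 4.22e-06 with limma; -0.74 with normexp and quantile normalization).

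Of the 7 chemokine genes tested, 1 was called, CXCL8, the neutrophil attractant interleukin-8. Its signals were 4326, 4754 and 4587 in shCtrl and 13155, 13387 and 12769 in shXBP-1s, for a log2 fold change of 1.25 (SE 0.07, adjusted p = 7.2e-06 with limma). The call held under every alternative run. CXCL1, another neutrophil attractant, moved the other way by its brightest probe (-0.44, adjusted p = 0.000984 with limma). The second CXCL1 probe overlapped between the groups (-0.19, adjusted p = 0.0932 with limma). CXCL3, CXCL5 and CCL2 also fell by the adjusted p alone, and CCL2 was called without shCtrl replicate 1 (-1.08). CCL20, which draws CCR6-bearing lymphocytes, rose by the adjusted p alone (0.26).

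Of the 10 antimicrobial and acute-phase genes tested, 5 were called. The acute-phase genes SAA1 (-1.28, adjusted p = 3.67e-06) and SAA2 (-1.75, adjusted p = 1.36e-06 with limma) fell, and both calls held under every alternative run. They are close in sequence, so their probes may read each other's transcript. PI3, the elastase inhibitor elafin, rose from signals of 60.4, 59.2 and 58.9 in shCtrl to 214.7, 193.2 and 154.3 in shXBP-1s (log2 fold change 1.37, adjusted p = 9.64e-06 with limma). RNASE7 (1.24) and the beta-defensin DEFB103B (1.92), named here after their values were seen, also rose. The probe of DEFB103A, also in the list, was not well above background on any array and was not tested. The calls of PI3, RNASE7 and DEFB103B were lost in both normexp settings, and that of RNASE7 also with the slide as a block (0.91). The S100 proteins S100A7 (0.43) and S100A8 (0.34) rose and LCN2, the siderophore-binding lipocalin, fell (-0.35) by the adjusted p alone. S100A8 and LCN2 did not pass with normexp alone or with the methods' t-test under Benjamini-Hochberg adjustment. S100A8 also did not pass without shCtrl replicate 1 and when shXBP-1s replicate 2 or 3 was left out. S100A9 was at 0.14 (adjusted p = 0.0725 with limma).

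Of the 7 cytokine genes tested, 4 were called. IL36G, an epithelial cytokine of the interleukin-1 family, gave 51.8, 55.8 and 54.7 in shCtrl and 284.4, 272.2 and 264.7 in shXBP-1s, for a log2 fold change of 2.07 (SE 0.07, adjusted p = 1.66e-06 with limma). CSF2 rose too (1.14), whereas TNF (-1.13) and the granulocyte factor CSF3 (-1.89), the latter named after its values were seen, fell. The CSF3 value is that of its brighter probe, which was at -0.47 with normexp and quantile normalization. The dimmer CSF3 probe overlapped between the groups (-0.51, adjusted p = 0.18 with limma). IL6 was at 0.16 (adjusted p = 0.156 with limma), and IL19 was called lower without shCtrl replicate 1 (-1.15; -0.94 with all arrays). Of the 5 genes of proteases and other targets tested, MMP13 (2.19) and MMP1 (1.25) were called higher, and MMP3 (0.87) was called without shCtrl replicate 2 (1.00). With normexp background correction the fold changes were 0.77 for IL36G, 0.12 for MMP13 and 0.15 for MMP1. In that setting the median of all tested probes was -0.41, and those 3 genes, CSF2, CSF3 and TNF lost their calls. With normexp and quantile normalization IL36G (1.20) kept its call, whereas MMP13 (0.78), MMP1 (0.64), CSF2, CSF3 and TNF lost theirs.

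The 5 genes whose levels over the 6 arrays were most like those of IL17C were found by the root mean square difference of the centred log2 levels, over the 20824 other probes that have a symbol and passed background on all arrays. They were LY6D (0.16), ADGRF5 (0.17), RIPOR3 (0.18), TMT1A (0.18) and RND2 (0.22). All 5 were lower in shXBP-1s, with log2 fold changes between -2.74 for LY6D and -2.23 for RND2. XBP1 itself came next, at 0.24. As for IL17C, shCtrl replicate 1 was the lowest control for each of the 5. The likeness follows mainly from the gap between the groups and is given without a test. It was computed over the same 6 arrays, so the shared low value in shCtrl replicate 1 is in part fixed by the choice of genes.

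**Figure D4:**
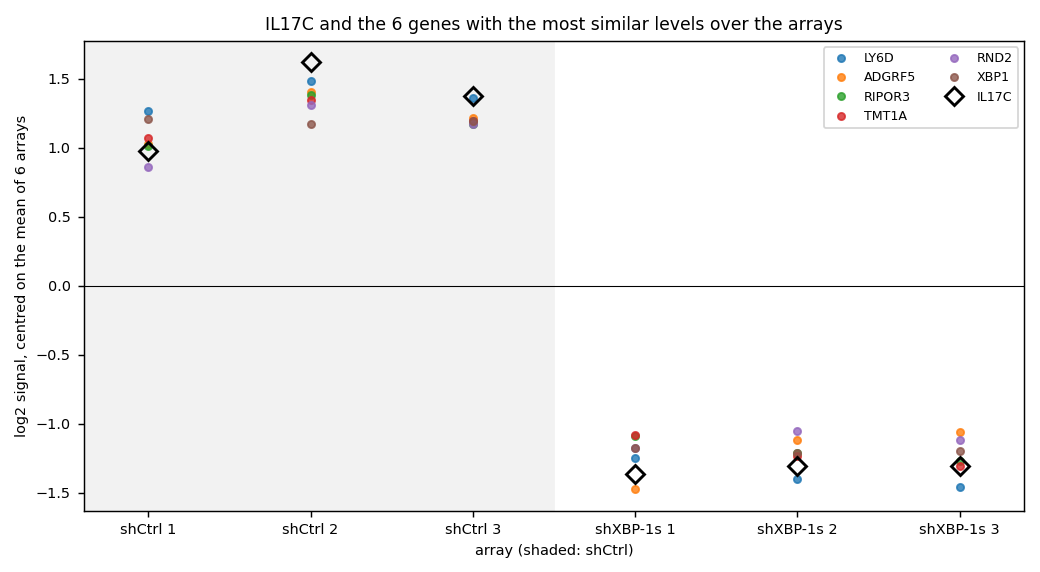
Log2 signal of IL17C (black diamonds) and of LY6D, ADGRF5, RIPOR3, TMT1A, RND2 and XBP1 (coloured points) on each array (horizontal axis), centred on the mean of the 6 arrays (vertical axis). IL17C, like the 5 nearest genes but unlike XBP1, is lowest among the controls in shCtrl replicate 1. The genes shown with IL17C were picked by likeness over these same arrays.

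All 8 markers of squamous epithelium in the list were well above background on all 6 arrays, and 5 of them rose by the adjusted p. Their summed level, in multiples of the 75th percentile of the array, was between 100.5 and 107.0 in shCtrl and between 134.7 and 159.9 in shXBP-1s. The keratins KRT5 (1.43), KRT14 (1.58) and KRT6A (4.28) were called higher, and TP63 (0.93) and SFN (0.71) rose by the adjusted p alone. SFN, with the highest signals of the list, weighed most in the sum. The groups overlapped for CDH1 (0.13), EPCAM (0.01) and PKP1 (-0.02). The part of this difference in the values of the IL-17 genes was not tested. For markers of IL-17-producing lymphocytes the sum was between 8.48 and 9.41 in shCtrl and between 9.18 and 9.48 in shXBP-1s, with 7 of 9 well above background on all 6 arrays and IL23R on none. The sum of the myeloid list was between 4.86 and 6.65 in shCtrl and between 4.30 and 4.47 in shXBP-1s. Of its 6 markers, 5 had a probe and 4 were well above background on all arrays. CD14, with the highest signals of the list, fell by the adjusted p alone (-0.84). CSF1R was called higher (1.04), CD68 rose by the adjusted p alone (0.65), and ITGAM overlapped between the groups (0.05). For fibroblasts the sum was between 0.96 and 1.06 in shCtrl and between 0.66 and 0.68 in shXBP-1s, with 5 of 6 and COL3A1 on none, DCN and LUM called higher and PDGFRB called lower, and for endothelium it was between 0.22 and 0.28 and between 0.26 and 0.28.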

How the data were processed

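Gene expression was measured on 6 1-colour Agilent arrays (Cy3), 3 of shXBP-1s and 3 of shCtrl CAL-27 cells, grouped by the sample labels. The authors deposited each array's Agilent Feature Extraction 11.0.1.1 output, in which the signal is a background-subtracted intensity not normalized between arrays. A table of log2 values was also deposited by the authors, with its making not described, and was used as an alternative only; the submitters' processing notes name RMA. The labels describe a NimbleGen labelling, whereas the scanner output gives an Agilent array.

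The 75th percentile of each array's non-control spots was subtracted from the log2 signal, flagged spots (230 to 377 per array) were left out, and replicate spots were averaged per probe. Well above background meant over 50% of a probe's spots. Probes that passed this on all 3 arrays of either group were tested with limma 3.58.1 (lmFit, eBayes with trend) in R 4.3.3, 2-sided, with p-values adjusted by Benjamini-Hochberg over all 27624 probes tested and without a batch term. The script was tested on simulated data. Accessions gave symbols to 25771 of 34127 probes through RefSeq (GRCh38.p14); the array annotation names another build, so only promoter windows have coordinates.

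The members and lists were chosen with earlier results of these data known. The genes named are the members, XBP1, the other ligands, selected signalling and target genes (TRAF6, CXCL1, CXCL8, CCL20, LCN2, S100A7, S100A8, S100A9, IL36G and IL6), up to 3 called genes per list by p and the 5 genes most like IL17C; further genes were named after their values were seen. The alternatives were normexp (offset 50, on the median spot signal) with and without quantile normalization, quantile normalization alone, the table of deposited log2 values, different filters for dim probes, no variance trend, a block for the replicate number or for the slide, the methods' t-test, no minimum fold, the mean over probes, and leaving out each array.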

Additional observations from a re-analysis of the deposited data

How the results depend on the processing

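IL17C stayed lower in shXBP-1s under every alternative run. Its log2 fold change was -2.32 with normexp, -2.21 with normexp and quantile normalization and -2.30 with the slide as a block, and between -2.82 and -2.50 with each array left out, where XBP1 stayed between -2.40 and -2.38. The 1354 called probes became 473 with normexp, 357 with normexp and quantile normalization and 11516 with no minimum fold, and between 1253 and 1695 with each array left out. The 14 pathway genes called became 5, 4 and 44 in those 3 settings, and between 13 and 17. The cause of the smaller counts with normexp was not tested. By brightest probe 6 of 10 genes of the set had a negative log2 fold change, 8 with normexp, 7 with the slide as a block and 6 to 7 with each array left out. With normexp alone the median of all tested probes was -0.41. Fold changes of dim probes depend on the background correction.

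With the replicate number as a replicate block, 1381 probes and 14 pathway genes were called. Deviations of same-numbered samples correlated at -0.02, 0.12 and -0.12, so the numbers were not taken to pair the samples.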

Other observations

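Dimmer probes of 3 pathway genes were called while the brightest probe of the gene was not. The second TAB3 probe, for a subunit of the TAK1 kinase complex, had a log2 fold change of 1.68 (SE 0.06, adjusted p = 1.66e-06 with limma), against 0.59 for the brightest, and lay between 1.63 and 1.70 after leaving out single arrays. The second STEAP4 probe was at 1.35 (SE 0.19, adjusted p = 0.000832 with limma), against 0.09 for the brightest. It was at -0.58 with normexp alone, where the median of all tested probes was -0.41, and at 0.27 with normexp and quantile normalization. The second TAB1 probe was called lower, but it was not well above background on any shXBP-1s array, and the brightest TAB1 probe was at -0.02.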
